A study of Mus musculus with 2 samples.

Results

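The genes described here are the cathepsins, a set of mostly lysosomal proteases, and their protein inhibitors, the stefins and cystatins, in mouse nasal mucosa after papain. They were picked by gene symbol alone: Cts with a letter or number, Cst with a number, Csta1, Csta2, Csta3, Cstb, Stfa with a number, and BC100530. The rule found 40 genes of 22180 named genes, 24 of them cathepsin genes and 16 inhibitor genes, and no transcript cluster carried the symbol BC100530. Of the 24 cathepsin genes 1, Cts8-ps, is a transcribed pseudogene in RefSeq.

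Papain, a cysteine protease of papaya used as an allergen, was instilled into C57BL/6 mice of 4 to 6 weeks, and other mice of the same strain and age received phosphate-buffered saline (PBS). Nasal mucosa was taken at day 3, and total RNA went onto Affymetrix Mouse Gene 2.0 ST arrays, 1 for each treatment. The design text speaks of 4 samples combined into a specimen, without saying whether that holds for each array or whether each sample was a separate mouse. With 1 array per treatment no test and no spread between animals could be had, and precision is limited by how few arrays there are.

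Values are log2 signals, and a ratio is the papain value minus the PBS value on the log2 scale. The level without specific transcript was taken from 33 genes of other tissues, whose median signal was 5.13 after papain and 5.09 after PBS and whose 95 percentile over both arrays was 6.72. A gene whose higher signal of the 2 arrays exceeds 6.72 is called clearly detected here, and all 13 members that did so exceeded it in both arrays. Of 15 measured nasal mucosa markers, 14 were clearly detected, Bpifb2 being the exception. All 7 vomeronasal neuron markers had ratios above 0, beside 45.6% of all named genes. Their ratios ran from 0.10 for Gnai2 to 3.88 for H2-M1, with 3.35 for Calr4 and 3.04 for H2-M10.5. The specimens thus differed in the signals of these genes as well. Trpc2, another of them, was clearly detected only through its papain signal, at 7.04 against 6.21. The PBS signals of H2-M1, Calr4 and H2-M10.5 were 3.31, 4.59 and 4.43, under the other-tissue median, so the ratios of these 3 are of uncertain size. Here the summed log2 signal of a list is the log2 of its genes' signals added on the linear scale. Percentages of it are shares of that linear sum. For the vomeronasal list, with most of the sum from genes other than those 3, it was 11.76 after papain and 11.25 after PBS. The part of that difference in the ratios below was not tested. In bulk tissue, fewer cells of a type and less RNA per cell cannot be told apart.

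Most cathepsins are papain-like enzymes that cut proteins with an active-site cysteine, so they belong to the same protease family as the instilled allergen. They work mainly in lysosomes, where they break down proteins, and in antigen-presenting cells they also trim the invariant chain and antigens. Stefins, the type 1 inhibitors, act mainly inside cells, and cystatins of type 2 are secreted. Both kinds block papain-like enzymes by occupying the active-site cleft.

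None of the 40 genes reached a 2-fold difference between the arrays in either direction. Over all 22180 named genes, the share past 2-fold was 1.83% in the papain direction and 0.73% in the PBS direction. At 1.5-fold, 1 cathepsin gene was higher, Ctss, and 1 was lower, Ctsm, which was under the other-tissue median in both arrays. The background at 1.5-fold was 5.38% higher and 4.34% lower over all named genes, so 1 of 40 in each direction was no more than that background. The 24 cathepsin genes had a median ratio of -0.04 and the 16 inhibitor genes 0.02, beside -0.03 over all named genes.

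Ctss and Ctsk, which encode cathepsin S and cathepsin K, lie next to each other among the coding genes of chromosome 3 in the RefSeq gene table. Ctss had the highest ratio of the 40 members and Ctsk had the lowest ratio among the 13 clearly detected ones. Their sequences upstream of the gene start are shown because these adjacent genes differed in opposite directions. Each is the 250 bases before the RefSeq start on the plus strand of GRCm38.p6, at chr3:95526536-95526785 for Ctss and chr3:95498960-95499209 for Ctsk. Capitals mark matches, on either strand, to GAGGAA, the core bound by the myeloid factor PU.1, and to a GAAA repeat with 2 free bases between the copies, a core of the interferon response element.
Ctss: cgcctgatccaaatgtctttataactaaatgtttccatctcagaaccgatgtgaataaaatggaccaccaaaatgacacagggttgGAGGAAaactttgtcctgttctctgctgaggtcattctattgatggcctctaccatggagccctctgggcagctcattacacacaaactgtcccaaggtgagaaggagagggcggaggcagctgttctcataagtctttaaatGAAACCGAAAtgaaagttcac
Ctsk: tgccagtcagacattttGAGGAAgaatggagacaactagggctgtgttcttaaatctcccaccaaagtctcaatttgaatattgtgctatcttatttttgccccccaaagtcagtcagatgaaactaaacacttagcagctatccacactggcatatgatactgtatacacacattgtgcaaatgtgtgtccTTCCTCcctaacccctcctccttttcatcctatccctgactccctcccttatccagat

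In the Ctss window GAGGAA began 164 bases before the start and GAAACCGAAA began 21 bases before it. The Ctsk window held GAGGAA on the plus strand from base 233 and its complement TTCCTC from base 58 before the start, and no such GAAA repeat. The 2 windows were 47.7% identical in a global alignment. The GAAA repeat was in 2.98% of 32851 promoter windows of the same length and in 1 of the 33 windows of members, that of Ctss. It was searched after the Ctss window had been read. GAGGAA was in 18 of those 33 windows, or 54.5%, and in 23.3% of all windows. Windows were found for 32 of the 40 genes, and several belong to near copies, so the member windows are not independent. A match shows only that the letters are there.

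Cathepsin S is the main invariant chain protease of B cells, dendritic cells and macrophages. Ctss, transcript cluster 17400375, had a signal of 9.79 after papain and 9.13 after PBS. The ratio was 0.65, or 1.57-fold higher after papain. Among clearly detected named genes, 3.15% were at least 1.5-fold higher. For scale, the SD of the ratio between transcript clusters of one gene was 0.24 over 158 genes with repeated clusters whose mean signal exceeded 6.72, an error of the probes that holds nothing of the variation among mice.

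Markers of the cells that use cathepsin S showed smaller ratios than Ctss. Of 12 macrophage and monocyte markers 6 were above 0 and 6 below, with a median of 0.06, a highest ratio of 0.33 for Adgre1 and a lowest of -0.52 for Cd14. In all, 11 of the 12 were clearly detected, and of clearly detected named genes 65.5% were below 0, with a median of -0.10. Adgre1 and Ccr2 were so only through their papain signals, with PBS signals of 6.39 and 6.67 under the limit. The summed log2 signal of the 12 was 12.26 after papain and 12.21 after PBS. Lyz2 alone made up 54.6% and 46.3% of it, and without Lyz2 the direction turned, to 11.12 and 11.31. Of 8 B cell and dendritic cell markers 6 were above 0, beside 45.6% of all named genes, with a median of 0.02. The summed log2 signal of these 8 was 10.66 against 10.42. Only the class II genes H2-Aa, at 0.33, and H2-Ab1, at 0.28, were clearly detected in that list, while the B cell genes Ms4a1 and Cd79a were under the other-tissue median in both arrays. The part of these cells in the Ctss ratio was not tested.

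Cathepsin K is the collagen-degrading protease of osteoclasts and is also made by fibroblasts. Ctsk, transcript cluster 17400365, had a signal of 10.23 after papain and 10.66 after PBS. Its ratio of -0.44 stayed within 1.5-fold, with the PBS array 1.35-fold higher. The Ctss ratio exceeded the Ctsk ratio by 1.09. These were the highest and lowest ratios of the 13 clearly detected members, so that difference is the range of the set. A shift common to all genes of an array cannot alter it, while a shift that depends on signal can.

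Fibroblast markers were lower in the papain array beside Ctsk, as were 5 of 8 osteoclast markers. The ratios of all 7 fibroblast markers were below 0 and had a median of -0.38. Their summed log2 signal was 13.58 after papain and 14.11 after PBS. All 7 were clearly detected, and of clearly detected named genes 65.5% were below 0, with a median of -0.10. Col1a2 had -0.78 and Pdgfrb -0.62. Of 8 osteoclast markers 5 were below 0, with a median of -0.22 and a summed log2 signal of 11.06 against 11.69. Only 4 of the 8 were clearly detected, and of named genes not clearly detected 45.5% were below 0. Acp5, the tartrate-resistant phosphatase of osteoclasts, had -0.77, Mmp9, a gelatinase, -0.81 and Atp6v0d2 -0.42, all clearly detected in both arrays. Tnfrsf11a, the receptor RANK, had 0.16 and was clearly detected only through its papain signal, at 6.86 against 6.70. Dcstamp at -0.32, Oscar at -0.12 and Ocstamp at 0.01 were not clearly detected. Calcr, the calcitonin receptor, was under the other-tissue median in both arrays. The part of these cells in the Ctsk ratio was not tested.

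**Figure D1:**
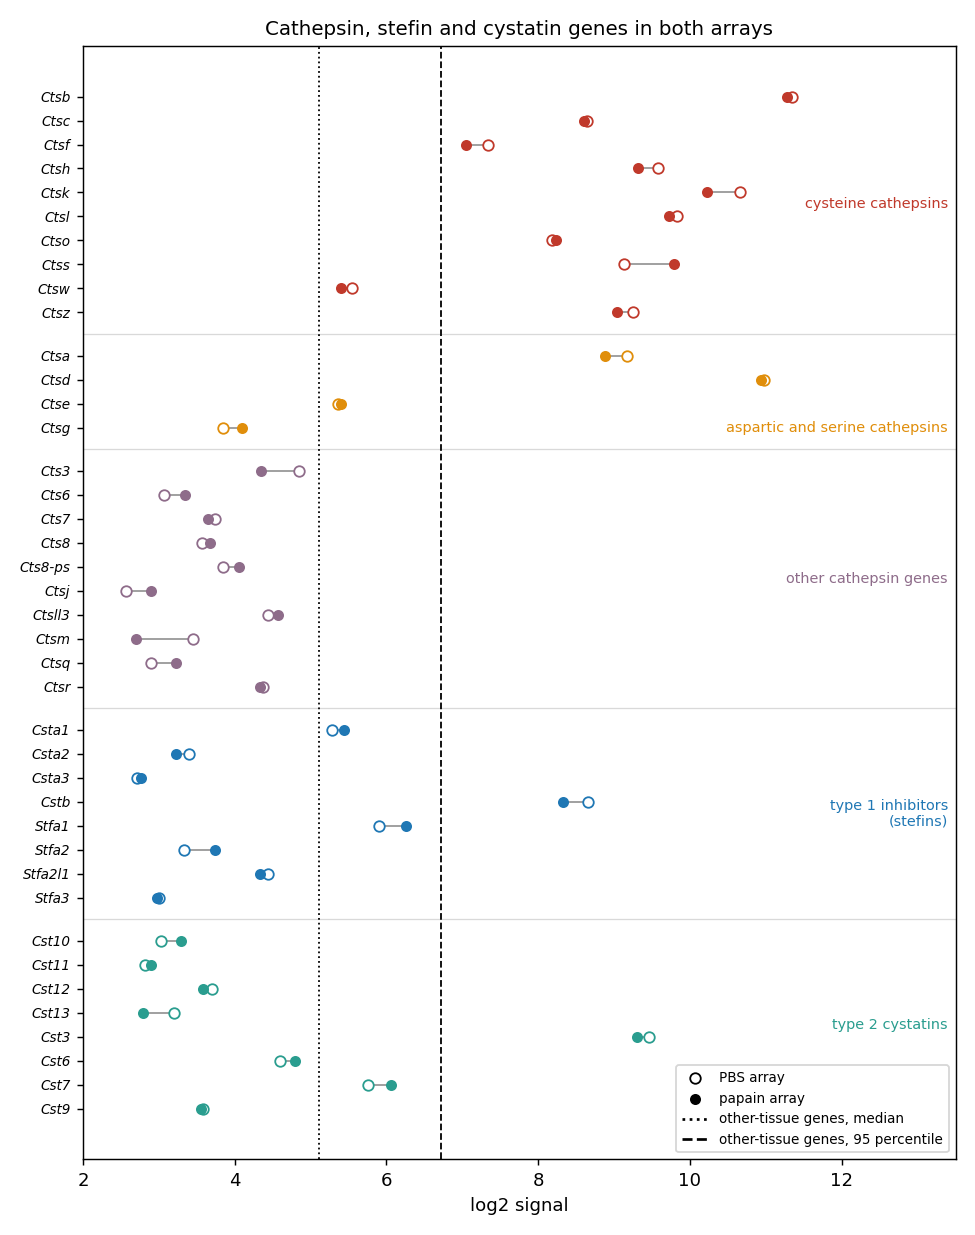
Log2 signal of each of the 40 genes in the PBS array (open circles) and the papain array (filled circles), by class, with the median and the 95 percentile of other-tissue genes as vertical lines. Ctss and Ctsk have the widest gaps among the 13 genes to the right of the 95 percentile, in opposite directions.

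The other cysteine cathepsins were close to even. Cathepsin B, an abundant lysosomal endopeptidase and exopeptidase, had Ctsb signals of 11.28 after papain and 11.35 after PBS, a ratio of -0.07. For Ctsl, cathepsin L, a lysosomal endopeptidase, the signals were 9.72 and 9.83 and the ratio was -0.11. Ctsh, an aminopeptidase of the lysosome, read 9.32 against 9.58, a ratio of -0.26. These 3 lysosomal enzymes were all slightly lower in the papain array.

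Ctsz, a carboxypeptidase, read 9.04 after papain and 9.25 after PBS, a ratio of -0.21. Ctsf had signals of 7.05 and 7.34 and a ratio of -0.30. Ctsc, which encodes the dipeptidyl peptidase that activates the serine proteases of granulocytes and mast cells, read 8.60 and 8.65, a ratio of -0.05 that changed sign after loess and after quantile normalization. Ctso was the only clearly detected cathepsin gene besides Ctss with a ratio above 0, at 0.05, with signals of 8.23 and 8.19. Ctsw, a cathepsin of cytotoxic T and NK cells, lay between the other-tissue median and 6.72, at 5.41 and 5.54. None of the 10 cytotoxic cell markers was clearly detected, and their summed log2 signal was 8.83 against 8.76.

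The aspartic and serine cathepsins are unrelated to papain in mechanism. Ctsd, the main lysosomal aspartic protease, read 10.94 after papain and 10.97 after PBS, a ratio of -0.03 that turned positive after loess. Ctsa, a serine carboxypeptidase that also stabilises lysosomal glycosidases, read 8.88 and 9.17, a ratio of -0.29. Ctse, an aspartic protease of epithelia and immune cells, was not clearly detected, at 5.40 and 5.37. Ctsg, a serine protease of neutrophil and mast cell granules, was under the other-tissue median in both arrays, at 4.10 and 3.85. Most mast cell markers were as dim, since 5 of 8 were under that median in both arrays, and 3 of 14 neutrophil markers were.

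Small negative ratios were common at these signals. Of the 11 clearly detected cathepsin genes 9 were below 0, or all but Ctss and Ctso, with a median of -0.11. Of the 9891 clearly detected named genes 65.5% were below 0, with a median of -0.10. The 10 clearly detected cathepsin genes without Ctss ran from -0.44 to 0.05, with a median of -0.16. Among genes not clearly detected the balance was the other way, with 45.5% below 0, so the sign of a small ratio moved with signal.

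**Figure D2:**
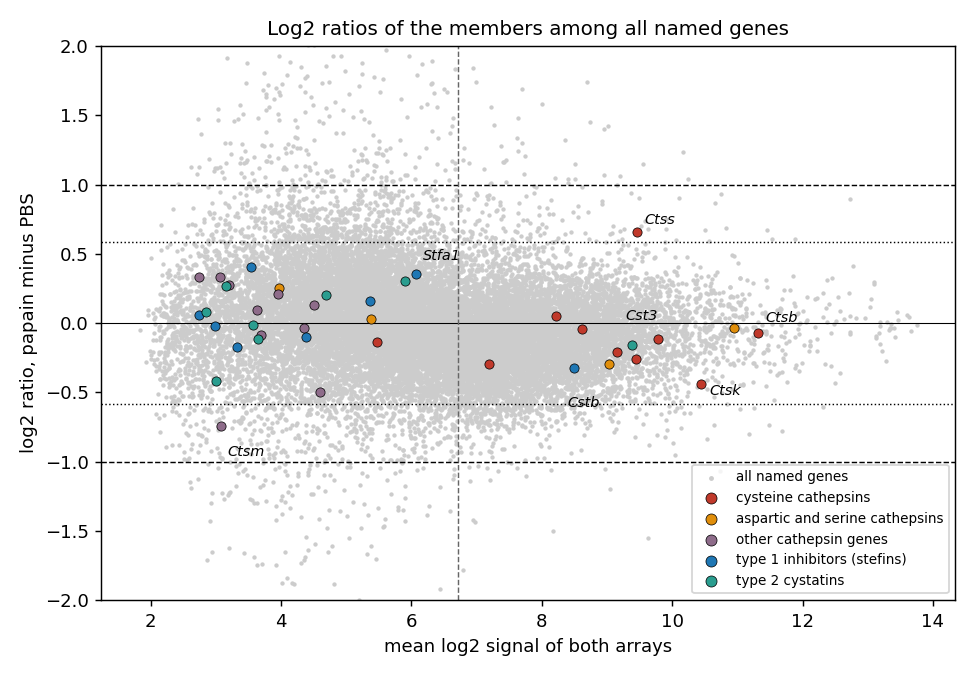
Log2 ratio, papain minus PBS, against the mean log2 signal of both arrays for all named genes (grey) and the 40 members (coloured by class), with dashed lines at 2-fold, dotted lines at 1.5-fold and a vertical line at 6.72; 161 grey genes lie outside the plotted range. All members lie inside the 2-fold lines, Ctss and Ctsm lie outside the 1.5-fold lines, and the members follow the grey cloud, which sits slightly below 0 to the right of the vertical line.

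Lysosome genes outside the cathepsins gave a similar picture. Of 27 measured genes of 32 listed, 7 had ratios above 0 and 20 below, 0 passed 1.5-fold and the median was -0.05. Of these, 26 were clearly detected, and of clearly detected named genes 65.5% were below 0. Man2b1, the lysosomal alpha-mannosidase, had the lowest ratio at -0.38, and Tpp1, a lysosomal peptidase, had -0.34. Scarb2, a lysosomal membrane protein, had the highest at 0.26. Tfeb, a transcription factor that activates lysosome genes, was not clearly detected in either array and had -0.32. CACGTG, the E-box core to which that factor binds, was in the windows of Ctsa, Ctsd, Ctsf, Ctsl and Ctsll3, that is in 15.2% of the member windows and 6.02% of all windows.

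The remaining 10 cathepsin genes were near or under the floor of the array. They are Ctsll3 and the rodent-specific group of Cts3, Cts6, Cts7, Cts8, Cts8-ps, Ctsj, Ctsm, Ctsq and Ctsr, known mostly from placenta. All 10 were under the other-tissue median in both arrays, with signals from 2.57 to 4.85. Their ratios, from -0.74 for Ctsm to 0.33 for Ctsq, are ratios of array signals and no measure of transcript. In the RefSeq order Ctsj, Ctsq, Ctsr, Cts6, Cts8, Cts7, Ctsm and Cts3 follow each other on chromosome 13 with no other coding gene between them. The Cts3 and Ctsm upstream windows were 90.6% identical, while the 28 pairs of that group had a median identity of 55.0%. These are identities of upstream sequence, and whether the probes tell the transcripts apart was not tested.

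Among the inhibitors, only Cstb and Cst3 were clearly detected, and both were lower in the papain array. Stefin B, encoded by Cstb, is a broadly expressed intracellular inhibitor of cathepsins. Cstb read 8.33 after papain and 8.65 after PBS, a ratio of -0.33. Cystatin C, encoded by Cst3, is the main secreted inhibitor of cysteine cathepsins. Its brighter transcript cluster read 9.31 and 9.46, a ratio of -0.16. A second Cst3 cluster read 6.59 and 7.26, a ratio of -0.67 that passed 1.5-fold, and their mean gave -0.41, within 1.5-fold. The counts at 1.5-fold above use the brighter cluster. Both clusters were lower in the papain array, by unequal amounts. Cst3 was the 1 member with more than 1 cluster.

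The stefin A genes, known from neutrophils and squamous epithelium, lie on chromosome 16 beside each other and the related Cstdc genes. Stfa1 had signals of 6.25 after papain and 5.90 after PBS, a ratio of 0.36, and Csta1 had 5.44 and 5.28, a ratio of 0.16. Both lay between the other-tissue median and 6.72. The other 5, Csta2, Csta3, Stfa2, Stfa2l1 and Stfa3, were under the other-tissue median in both arrays, with signals from 2.71 to 4.44 and ratios from -0.17 to 0.41. The highest of these, Stfa2, read 3.74 and 3.33.

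Of the 14 neutrophil markers 9 had ratios above 0, beside 45.6% of all named genes, with a median of 0.14. In all, 11 of the 14 were not clearly detected, and of named genes not clearly detected 45.5% were below 0. At 1.5-fold 1 was higher and 2 were lower, beside 5.38% and 4.34% of all named genes. The higher one, the chemokine receptor Cxcr2 at 1.26, was clearly detected only through its papain signal, at 6.85 against 5.59. The lower ones were Prtn3 at -0.87, not clearly detected, and Ly6g at -0.72, under the other-tissue median in both arrays. Retnlg had 0.58. The summed log2 signal was 12.97 against 12.76, of which Ltf, which glands also make, was 89.5% and 89.6%. Without Ltf it was 9.72 against 9.49. Of the 11 squamous epithelium markers 8 were below 0, with a median of -0.16, and 9 were clearly detected. Of clearly detected named genes 65.5% were below 0. The 3 above 0 were Sprr1b at 0.93 and Krt16 at 0.26, neither clearly detected, and Ivl at 0.10. At 1.5-fold 1 was higher, Sprr1b, and 2 were lower, beside 5.38% and 4.34% of all named genes. The lower ones were Lor at -0.65 and Sprr3 at -0.63, both clearly detected in both arrays. Ivl was clearly detected only through its papain signal and Sbsn, at -0.48, only through its PBS signal. The summed log2 signal was 12.47 against 12.74, of which Sprr1a was 60.7% and 62.4%. Without Sprr1a it was 11.1 against 11.3. The part of either cell type in the stefin A signals was not tested. The upstream windows of Stfa1, Stfa2, Stfa2l1 and Stfa3 were 80.2% to 89.4% identical to each other, while Csta2, for one, was only 40.8% to 44.9% identical to the other stefin A windows. Whether the probes tell these transcripts apart was not tested.

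Of the 8 type 2 cystatins, Cst7 came next after Cst3. It encodes cystatin F, an inhibitor made by leukocytes that acts on cathepsin C. Cst7 read 6.06 after papain and 5.75 after PBS, a ratio of 0.31, without being clearly detected. The other 6 were under the other-tissue median in both arrays, with signals from 2.79 to 4.80 and ratios from -0.41 to 0.27. Cst6, known from skin and other epithelia, was the highest of them at 4.80 and 4.59. Cst9, Cst11, Cst12 and Cst13, known mainly from the male reproductive tract, and Cst10 made up the rest. Counted over all 16 inhibitor genes, 8 ratios were above 0 and 8 below, beside 45.6% above 0 over all named genes.

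**Figure D3:**
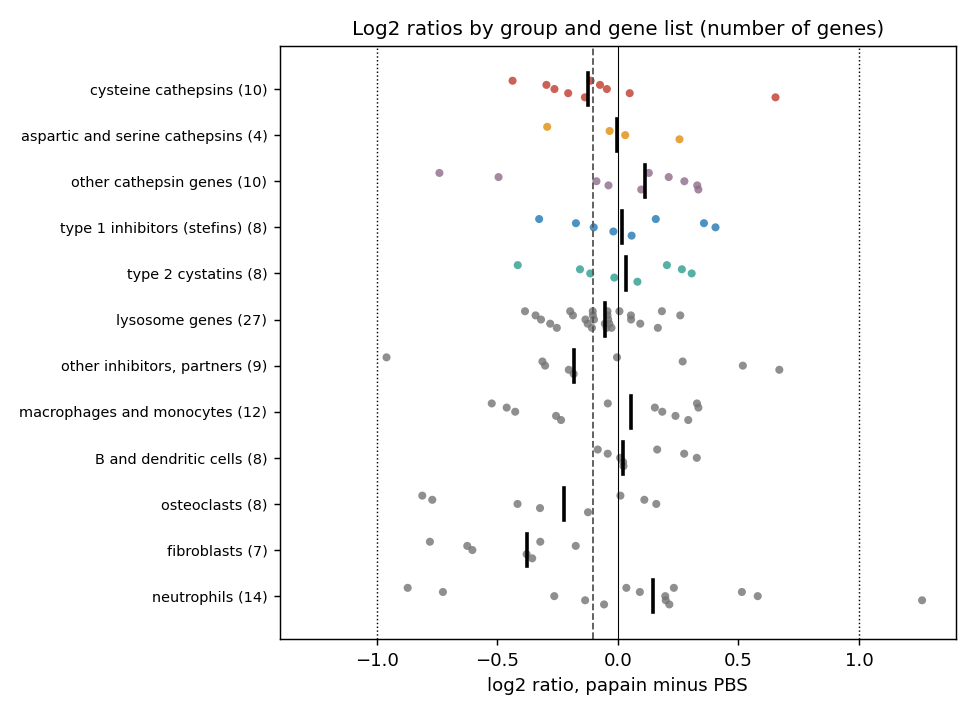
Log2 ratios, papain minus PBS, of the 5 classes of members (coloured) and of the gene lists (grey), with the median of each as a black bar, dotted lines at 2-fold and a dashed line at the median of clearly detected named genes, -0.10. Ctss stands apart at 0.65 among the cysteine cathepsins, and the fibroblast genes lie wholly below 0.

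Other proteins that restrain or process cysteine proteases had ratios in both directions, from -0.96 to 0.67. Of 9 measured genes of the 10 listed, 3 had ratios above 0 and 6 below, with a median of -0.18. At least 1.5-fold higher was 1 of them, and 1 was lower. Over all named genes 45.6% were above 0, 5.38% at least 1.5-fold higher and 4.34% lower. Fetub, a cystatin-domain protein best known as an inhibitor of astacin-type metalloproteases, read 11.78 after papain and 11.11 after PBS, 1.59-fold higher. Kng2, a kininogen with cystatin domains, had 0.52. Serpinb3a, a serpin of squamous epithelium, was the 1 that was lower, with signals of 5.46 and 6.42 that were not clearly detected. Lgmn, the asparaginyl protease legumain that processes cathepsins, had -0.20. These were named for the largest ratios in the list, apart from Lgmn, which was named after its value was seen.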

How the data were processed

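The authors deposited log2 signals per transcript cluster for 1 papain and 1 PBS array at day 3; the log2 scale was read from the values, with medians of 5.70 and 5.64. The submitters' processing notes list Transcriptome Analysis Console 4.0; how background was corrected, probes summarised and arrays normalized is not given in the sources used here. If arrays were equalised, a difference in total RNA would be hidden.

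Of 41345 clusters, 23521 carried 1 symbol in the platform annotation, 1814 several and 16010 none, and only the first were named. The brightest cluster per gene by mean signal was kept. All 40 members matched RefSeq by gene ID, and no cluster with several symbols named a member. RefSeq promoters are of GRCm38.p6.

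Members, lists and motifs were chosen with earlier results of these data known. Every member could be named; those above 6.72 in the higher array were given in full, and the others mostly by range. At most 4 list genes with the largest ratios were to be named, and a few more were named after their values were seen. The steps were tested on simulated data. Alternatives were quantile normalization, a median ratio of 0, loess (span 0.3), averaged clusters, a floor at the median named signal of 6.29, and folds of 1.5 and 3. Python 3.11.15, numpy 2.4.6, pandas 2.3.3, statsmodels 0.14.6 and matplotlib 3.10.9 were used.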

Additional observations from a re-analysis of the deposited data

How the results depend on the processing

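The counts of 0 genes past 2-fold were 0 under each normalization. At 3-fold they had to be 0 as well, since no gene passed 2-fold. At 1.5-fold they became 1 cathepsin gene higher and 1 lower, the latter 2 after loess. The inhibitor median of 0.02 turned to -0.24 when only the 2 inhibitor genes above the median signal were kept, a change that follows from leaving out the 14 dimmer genes. The cathepsin median ran from -0.11, with that floor, to -0.01, with the median ratio set to 0. The Ctss ratio ran from 0.65 to 0.72 and that of Ctsk from -0.44 to -0.39 over 4 alternatives and the values as deposited. Averaging clusters, one of these alternatives, could not alter either ratio, because both genes have 1 cluster. Ctsc, Ctsd and Ctse changed sign after loess, Ctsc and Ctse after quantile normalization, and Cst9 and Stfa3 with the median ratio set to 0. The median ratio of clearly detected named genes was -0.10 as deposited and -0.002 after loess. Low signal limits 27 of the 40 genes. No paired analysis was possible because each treatment is 1 array.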

Other observations

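Cystatin-domain genes outside the symbol rule were looked at after the members' values had been seen. Cstdc1 to Cstdc6 were all under the other-tissue median in both arrays. Cstdc6 had the highest signal-to-signal ratio, 0.69, at 4.97 after papain and 4.29 after PBS, and Cstdc2 the lowest, -0.43. Cstl1 read 5.43 and 5.12, a ratio of 0.31, without being clearly detected.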
